A study of Mus musculus with 2 samples.

Results

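The sensory miR-183 cluster consists of 3 microRNA genes, Mir183, Mir96 and Mir182, which were taken by their GENCODE gene names from the 1973 miRNA genes counted in mouse neural tube at embryonic day 13.5. All 3 genes were present in both count tables, and all 3 passed a minimum of 100 counts summed over the libraries, as did 306 of the 1973 genes. The neural tube gives rise to the central nervous system of the embryo. Both small RNA libraries came from healthy embryos of the strain B6NCrl with males and females pooled, and they carry the biological replicate numbers 1 and 2. There was 1 condition and no control group, and the labels list separate tissue samples under 1 shared strain-level donor entry.

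The cluster is transcribed as 1 long primary RNA from which 3 hairpins are cut and processed to mature miRNAs of about the same size. It is best known from sensory cells: photoreceptors of the retina, hair cells of the inner ear, olfactory receptor cells and the sensory neurons of the dorsal root and cranial ganglia. The mature miRNAs pair with messenger RNAs through their seed, bases 2 to 8, and changes in the seed of miR-96 cause progressive hearing loss in mouse and human. In mouse retina, a long noncoding RNA read from the opposite strand, Rncr4, is known to affect how the primary transcript is processed.

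The genes lie within 1 stretch of the minus strand of chromosome 6 (GRCm38, the assembly also called mm10), in the order Mir183, Mir96, Mir182 in the direction of transcription. Mir183 occupies chr6:30169668-30169737 (70 bases), Mir96 chr6:30169446-30169551 (106 bases) and Mir182 chr6:30165918-30165992 (75 bases). Mir96 begins 116 bases after Mir183, while 3453 bases separate Mir96 from Mir182. No annotated gene of GENCODE M21 on either strand overlaps them, so they are intergenic. Rncr4 starts 3155 bases upstream of Mir183 on the plus strand, and the protein-coding gene Nrf1, also on the plus strand, ends 12459 bases beyond Mir182. Neither was measured in these small RNA libraries.

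The mature sequences from RefSeq (GRCm38.p6) are shown because they decide how far the members resemble each other in what they can bind and in how their reads can be told apart. Each is written 5′ to 3′ with the seed in capitals.
miR-183-5p: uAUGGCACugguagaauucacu
miR-96-5p: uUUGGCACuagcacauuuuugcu
miR-182-5p: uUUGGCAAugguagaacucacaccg
miR-183-3p: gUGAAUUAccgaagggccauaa
miR-96-3p: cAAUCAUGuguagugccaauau
miR-182-3p: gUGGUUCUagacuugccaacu

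The 3 seeds of the 5p arms are near copies of each other but none is identical. Position by position from base 1, miR-182-5p matched miR-183-5p at 18 of 22 bases, with the substitutions A2U, C8A, U17C and U22A, where the base of miR-183-5p comes first. Both of the first 2 substitutions fall in the seed. Against miR-183-5p, miR-96-5p matched at 13 of 22 bases, and A2U was the only substitution in the seed. Against miR-96-5p, miR-182-5p matched at 12 of 23 bases, and C8A was the only one in the seed. miR-96-5p and miR-182-5p thus share bases 2 to 7, and differ from miR-183-5p at base 2. The longest run in common between miR-183-5p and miR-182-5p was UGGUAGAA, 8 bases directly behind the seed.

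The hairpins carry both arms, shown here with the mature arms in capitals, since the deposited counts are per gene and do not separate the arms.
Mir183: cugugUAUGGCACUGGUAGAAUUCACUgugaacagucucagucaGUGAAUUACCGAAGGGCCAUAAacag
Mir96: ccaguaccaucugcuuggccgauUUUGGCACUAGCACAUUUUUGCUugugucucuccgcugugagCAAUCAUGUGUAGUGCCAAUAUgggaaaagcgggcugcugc
Mir182: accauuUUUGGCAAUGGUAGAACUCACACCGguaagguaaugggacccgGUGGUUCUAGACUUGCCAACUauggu

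Reads of the members can be told apart by sequence. Among the 1004 other RefSeq hairpins, compared ungapped on both strands, the closest place to miR-183-5p was in Mir182 with 4 mismatches, and the closest to miR-182-5p was in Mir183 with 6. For miR-96-5p the fewest mismatches were 8, and for the 3p arms 6 to 7. Genomic sequence outside miRNA hairpins was not searched. Reads that mapped to several places, 28.5% of all reads in replicate 1 and 31.0% in replicate 2, appear, from the layout of the tables, not to have been assigned to any gene.

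By counts, the cluster was among the abundant miRNAs of this tissue. The 3 genes together held 223212 of 7019469 same-strand counts in replicate 1 and 115337 of 5738209 in replicate 2, or 3.18% and 2.01% of the counts on miRNA genes. Levels are given below as CPM, the same-strand counts of a gene scaled to an equal total over all miRNA genes in each library. They are not divided by length, because a read covers a whole small RNA and not a fragment of a longer one.

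Mir182 had 105548 counts in replicate 1 and 42731 in replicate 2, or 15036 and 7447 CPM. It was the highest of the members in replicate 1 and the middle one in replicate 2, where it stood below Mir183. Its mean of 11242 ± 5367 CPM (SD, n = 2) put it at rank 14 of the 1973 genes, at rank 12 in replicate 1 and rank 23 in replicate 2. The Wilson 95% intervals of its share of the counts were 1.49% to 1.51% in replicate 1 and 0.738% to 0.752% in replicate 2. These intervals, like all counting intervals here, cover only the counting error of reads taken as independent, and not the spread between libraries. Without molecular identifiers several reads can stem from 1 molecule, so the intervals may be too narrow even for counting error.

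Mir183 had 87328 counts in replicate 1 and 54928 in replicate 2, or 12441 and 9572 CPM. Replicate 1 was again the higher library, by a smaller margin than for Mir182. The mean was 11007 ± 2028 CPM (SD, n = 2), rank 15 of all genes, with rank 14 in replicate 1 and rank 17 in replicate 2. The means of Mir182 and Mir183 differed by less than the SD of either, and their order was opposite in the 2 libraries.

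Mir96 had 30336 counts in replicate 1 and 17678 in replicate 2, or 4322 and 3081 CPM. It was the lowest member in both libraries. Its mean of 3701 ± 877 CPM (SD, n = 2) was rank 40, with rank 35 in replicate 1 and rank 48 in replicate 2.

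The genes next to the members in the order of mean level overlapped them in range. Mir30e, in the gene Nfyc, stood just above Mir182 at 12174 CPM in replicate 1 and 11593 CPM in replicate 2. Mir26b, in the phosphatase gene Ctdsp1, stood just below Mir183 at 9684 CPM in replicate 1 and 11411 CPM in replicate 2. Mir96 lay between Mir411, at 3641 and 4118 CPM in replicates 1 and 2, and Mir151, in the kinase gene Ptk2, at 3415 and 3938 CPM. Each of these 4 neighbours was below its member in replicate 1 and above it in replicate 2, so the ranks of the members and of these genes are not separated beyond the replicate spread.

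**Figure D1:**
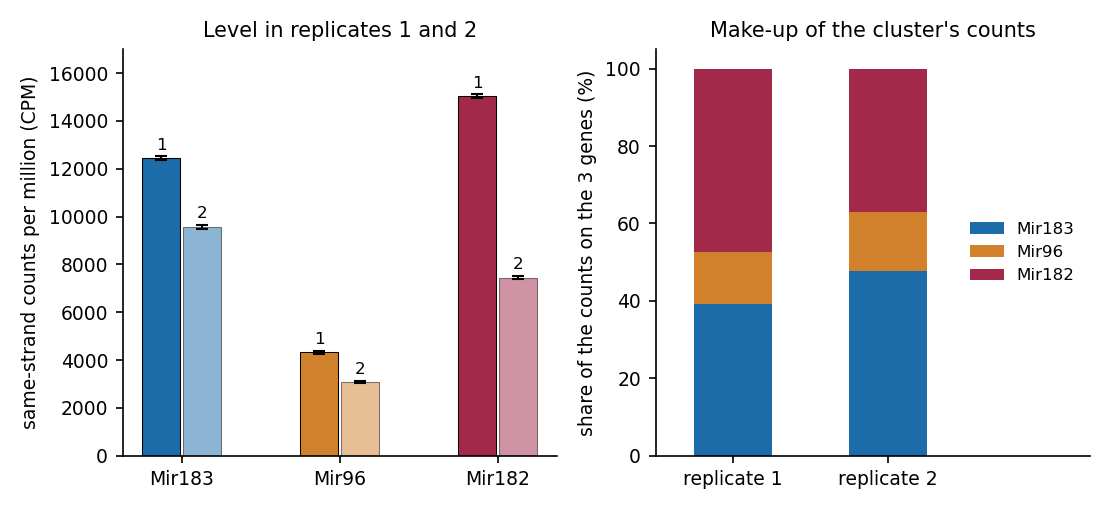
Left, CPM of each member, with 1 bar for each library (1 and 2 above the bars are the replicate numbers) and Wilson 95% intervals for counting error. Right, the share of the cluster's counts held by each member in each library: Mir182 held 47.3% in replicate 1 and 37.0% in replicate 2, while Mir183 held 39.1% in replicate 1 and 47.6% in replicate 2.

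The 3 members did not have equal counts. Mir96 was 2.88-fold below Mir183 in replicate 1 and 3.11-fold below it in replicate 2, a mean log2 ratio of Mir96 to Mir183 of -1.58 ± 0.078 (SD, n = 2). This ratio was the steadiest of the 3 pairs. Mir182 was 3.48-fold above Mir96 in replicate 1 and 2.42-fold above it in replicate 2, a mean log2 ratio of 1.54 ± 0.37. Mir182 against Mir183 had a log2 ratio of 0.27 in replicate 1 (exact 95% counting interval 0.26 to 0.29) and -0.36 in replicate 2 (-0.38 to -0.34), a mean of -0.044 ± 0.45. The order of this pair turned round between the libraries, and neither interval reached 0. Ligation efficiency differs between miRNAs and was not measured, so ratios between genes compare counts and not molecules. Whether it was equal in both libraries for the same 2 sequences was not tested.

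As a share of the cluster's own counts, Mir182 made up 47.3% in replicate 1 (Wilson 95% interval 47.1% to 47.5%) and 37.0% in replicate 2 (36.8% to 37.3%). Mir183 made up 39.1% in replicate 1 (38.9% to 39.3%) and 47.6% in replicate 2 (47.3% to 47.9%). Mir96 made up 13.6% in replicate 1 (13.4% to 13.7%) and 15.3% in replicate 2 (15.1% to 15.5%). Mir182 thus held the largest share in replicate 1 and Mir183 the largest in replicate 2.

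The level spread within the cluster was small beside other groups of neighbouring miRNA genes. Chains were formed from miRNA genes of 1 strand with at most 10 kb between neighbours, and 39 chains held at least 2 genes with at least 100 counts summed. The highest mean level was 3.04-fold above the lowest in the Mir183 to Mir182 chain, against a median of 20.8-fold over the 39 chains, and the cluster came 29 of 39 from the widest. Chains with more genes can spread further, and their genes may lie on separate transcripts. Some chains also hold genes with a further copy in the genome, such as Mirlet7c-1, at a mean of 225 CPM beside Mir99a at 121726 CPM. Reads common to such copies may be missing from their counts and so widen these chains. How much of the median this makes up was not tested.

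All 3 members were higher in replicate 1 than in replicate 2, and Mir182 by the most. On the log2 scale, the ratio of CPM in replicate 1 to CPM in replicate 2 was 1.01 for Mir182 (exact 95% counting interval 1.00 to 1.03), 0.49 for Mir96 (0.46 to 0.52) and 0.38 for Mir183 (0.36 to 0.39). These are 2.02-fold, 1.40-fold and 1.30-fold differences. With 1 library on each side there is no replicate check and no p-value. The intervals were well apart from 0 and those of the 3 genes did not overlap. The members thus differed between the libraries, and from each other, by more than the counting error of reads taken as independent.

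All of the 3 members were higher in replicate 1, against 44.1% of the 306 genes with at least 100 counts summed. A difference of at least 0.5 log2 units in favour of replicate 1 was found for 1 of 3 members, Mir182, against 4.58% of all genes (8.5% in either direction), and one of at least 1 log2 unit again for Mir182, against 1.63%. Mir96 stood just under the limit of 0.5 and passed it when libraries were scaled by TMM (0.52) or by DESeq2 size factors (0.52), where 2 of 3 members and 5.56% of all genes passed, and by all mapped reads (0.50), where 2 of 3 members and 5.23% passed. The median difference over the 306 genes was -0.039, and the median absolute difference was 0.19. Counting from the gene highest in replicate 1, Mir182 came 5th, Mir96 16th and Mir183 26th of the 306.

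Among abundant genes, Mir182 was 1 of few with a difference of this size. Of the 79 genes with a mean of at least 1000 CPM, 3.8% were higher in replicate 1 by at least 0.5 log2 units, 1.27% by at least 1, and 0% were higher in replicate 2 by at least 0.5. By any amount, 3 of 3 members and 44.3% of the 79 were higher in replicate 1. Mir182 had the highest difference of the 79, Mir96 the 4th and Mir183 the 7th. The limit of 1000 CPM was chosen with the values known. The biological coefficient of variation common to 371 genes was 17.3% in edgeR, which corresponds to an SD of 0.35 log2 units for a difference between 2 libraries. In units of that SD the difference was 2.87 for Mir182, 1.38 for Mir96 and 1.07 for Mir183. The coefficient was estimated with TMM scaling from the same 2 libraries, members included, so these units are a description and not a test.

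**Figure D2:**
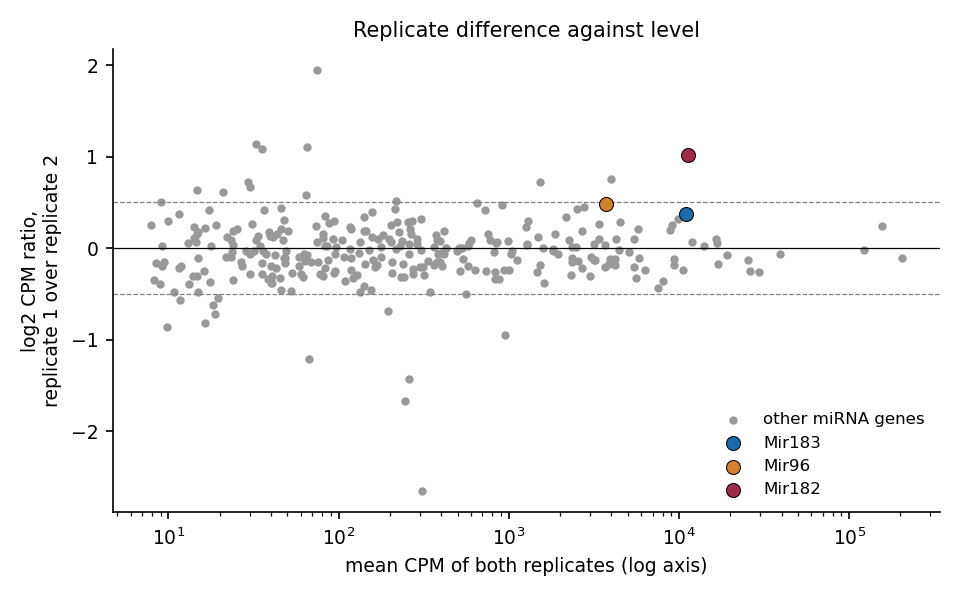
Log2 ratio of CPM in replicate 1 over replicate 2 (vertical axis) against mean CPM (horizontal log axis) for the 306 genes with at least 100 counts summed, with the 3 members coloured and dashed lines at 0.5 and -0.5. Mir182 stands at 1.01, above all other genes with a mean of at least 1000 CPM, while Mir96 at 0.49 and Mir183 at 0.38 lie below the upper line.

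The cluster as a whole summed to 31799 CPM in replicate 1 and 20100 CPM in replicate 2, a 1.58-fold difference. Mir182 accounted for 64.9% of that gap of 11699 CPM, Mir183 for 24.5% and Mir96 for 10.6%. The remaining members were both higher in replicate 1 as well, by the values given above.

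The 2 genes that lie close together were nearer to each other in replicate difference than either was to the distant one. The log2 ratio of Mir96 to Mir183 was higher in replicate 1 by 0.11 (95% counting interval 0.079 to 0.14). That of Mir182 to Mir96 was higher in replicate 1 by 0.53 (0.49 to 0.56), and that of Mir182 to Mir183 by 0.64 (0.61 to 0.66). The normal approximation was used for these 3 intervals. Because all are ratios within a library, they do not depend on how the libraries were scaled.

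Set beside other chains, the cluster's spread of 0.64 log2 units between its highest and lowest replicate difference came 5th of 39, against a median of 0.37. The widest chains were Mir379 to Mir3072 in the imprinted Dlk1-Dio3 region on chromosome 12, with 1.04 over 29 genes, Mir144 to Mir451a on chromosome 11, with 0.93 over 2 genes of red cells, and Mir322 to Mir450b on the X chromosome, with 0.91 over 5 genes. Spread grows with the number of genes in a chain, with a median of 0.57 in the 8 chains of 4 or more genes. Among the 31 chains of 2 or 3 genes the cluster came 3rd, against a median of 0.30. The Mir144 to Mir451a pair was at far lower levels than the cluster, with means of 16.4 and 32.8 CPM, and its exact 95% counting intervals ran from -0.19 to 0.63 for Mir144 and from 0.84 to 1.47 for Mir451a. Among the 5 chains in which every gene averaged at least 1000 CPM the cluster was the widest, at 0.64, and the next was Mir181c to Mir181d at 0.41. Both of these restrictions were chosen after the values were seen.

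Of the 39 chains, 9 had every gene higher in replicate 1, the cluster among them, and 8 had every gene higher in replicate 2. Of the 12 chains with at least 3 genes, 1 had every gene higher in replicate 1, the cluster, and 2 had every gene higher in replicate 2. Under TMM, DESeq2 size factors, totals without Mir10a, all mapped reads, or unstranded counts, the cluster remained the single chain all higher in replicate 1. The number all higher in replicate 2 was 1 under TMM and 3 without Mir10a. The minimum of 3 genes was not planned. Of the 12 chains, 8 held 4 or more genes, and longer chains less easily hold genes of 1 direction only.

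**Figure D3:**
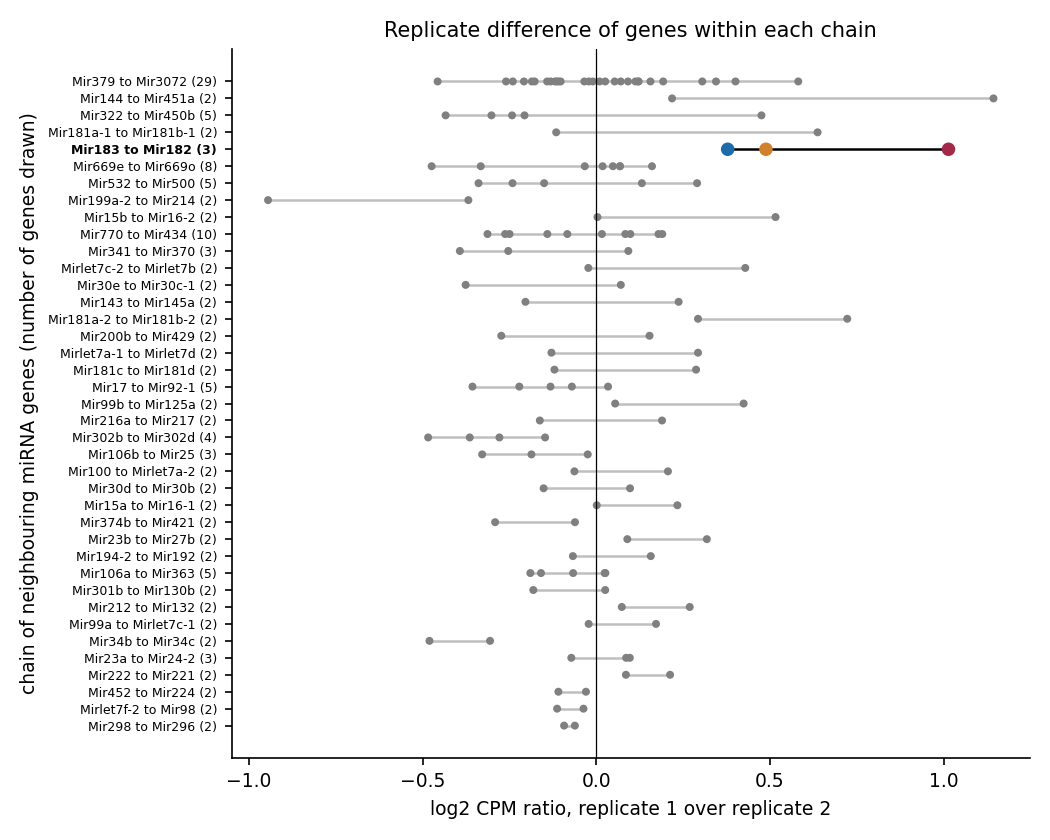
Each row is 1 chain of neighbouring miRNA genes on 1 strand, and each point is 1 gene with at least 100 counts summed, placed at its log2 ratio of CPM in replicate 1 over replicate 2. Rows are sorted by spread, the widest at the top, and the Mir183 to Mir182 chain, the 5th row, runs from 0.38 to 1.01 with Mir183 and Mir96 close together and Mir182 apart.

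Distance between neighbours was compared with the gap between their replicate differences in 97 pairs of neighbouring genes. The Mir183 and Mir96 pair, 116 bases apart, had a gap of 0.11, against a median of 0.18 in the 55 pairs less than 1 kb apart, of which 45 had a gap at least as wide. The Mir96 and Mir182 pair, 3453 bases apart, had a gap of 0.53, against a median of 0.33 in the 42 pairs 1 to 10 kb apart. In that class 5 pairs, itself included, had a gap at least as wide. The close pair of the cluster was thus narrower than the median of its class, and the distant pair wider than the median of its class. Pairs share genes and chains, and their levels and mappability differ, so the medians are given as a description with no test.

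**Figure D4:**
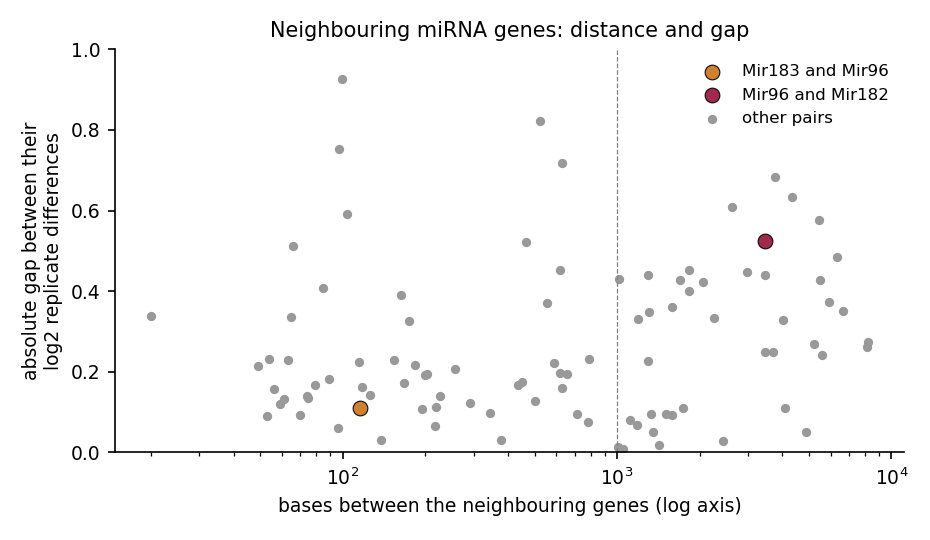
Absolute gap between the log2 replicate differences of neighbouring miRNA genes (vertical axis) against the bases between them (horizontal log axis), with a dashed line at 1 kb. The Mir183 and Mir96 pair lies at a gap of 0.11 and the Mir96 and Mir182 pair at 0.53.

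The genes whose replicate difference was nearest to each member, among those with at least 1000 counts summed, were not neighbours of the cluster. The likeness rests on 2 libraries and is the distance in log2 units. Nearest to Mir182 were Mir342, in the actin regulator gene Evl, at 0.75 (4983 CPM in replicate 1 and 2954 in replicate 2), and Mir181b-2 at 0.72 (1893 and 1147 CPM). They were 0.26 and 0.29 away from Mir182, which had no closer match at that minimum. With at least 100 counts summed, Mir208b at 1.08, Mir7j at 1.11 and Mir451a at 1.14 were closer to Mir182. The genes nearest to Mir96 and Mir183 were at most 0.028 away. Nearest to Mir96 were Mir138-1 at 0.49 (760 and 539 CPM), a miRNA of neurons, and Mir351 at 0.48 (1063 and 765 CPM). Nearest to Mir183 were Mir667 at 0.40 (179 and 135 CPM) and Gm23935 at 0.35 (93.3 and 73.2 CPM). Mir181b-2 and Mir138-1 have a further copy in the genome, and reads common to both copies may be missing from their counts.

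Of the other miRNAs with a member's seed, RefSeq lists 2. The mature form that RefSeq lists as miR-1271-5p, from the gene Gm24195 on chromosome 13, shares bases 2 to 8 with miR-96-5p and bases 2 to 7 with miR-182-5p.
miR-1271-5p: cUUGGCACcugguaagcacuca
Gm24195 had 0 counts in replicate 1 and 0 in replicate 2, which allows up to 0.427 and 0.523 CPM from 3 counts of each total. miR-3475-5p shares bases 2 to 8 with miR-96-3p, and its gene Mir3475 had 343 counts in replicate 1 and 286 in replicate 2, or 48.9 and 49.8 CPM. How many of the Mir96 counts came from the 3p arm is not given by counts per gene. No other mature sequence in the RefSeq table shared bases 2 to 7 with miR-183-5p.

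Lists of miRNAs of other cells that dissected tissue could hold were summed in each library, since their share could move with the cluster. The sense organ epithelium list, the miR-200 genes Mir200a, Mir200b, Mir200c, Mir141 and Mir429 of olfactory and other epithelia, summed to 101 CPM in replicate 1 and 112 CPM in replicate 2. It was thus far below the cluster in both libraries, and slightly lower in replicate 1. None of its 3 members with at least 100 counts passed 0.5 log2 units either way, against 8.5% of all 306 genes. Mir429, its highest, was at -0.27 (exact 95% counting interval -0.50 to -0.051). The neuronal list summed to 8142 CPM in replicate 1 and 8053 CPM in replicate 2, with 0 of 11 genes past 0.5 and a median of 0.029. Its leading gene Mir137 was at -0.041 (5025 and 5168 CPM), while the list ranged from -0.38 to 0.49. The next gene, Mir138-1, was at 0.49 (0.43 to 0.56), close to the value of Mir96 and likewise just under 0.5. Counts of genes past 0.5 are given for the lists under the main scaling only. Mir124a-2, the highest copy of the neuron-defining miR-124, had only 31 counts in replicate 1 and 15 in replicate 2, and reads common to its copies may be missing from them. The glial list, miRNAs known from oligodendrocytes, summed to 2765 CPM in replicate 1 and 2690 CPM in replicate 2, with 0 of 3 genes past 0.5. Most of it was Mir219a-2 (2360 and 2342 CPM), and whether its counts came from oligodendrocytes was not tested. The endothelial gene Mir126a was at 0.097 (17134 and 16019 CPM).

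The remaining lists, except the erythroid one, summed to less in replicate 1, the opposite direction to the cluster. Over all 306 genes, 3.92% were lower in replicate 1 by at least 0.5 log2 units. The multiciliated list summed to 386 CPM in replicate 1 and 952 CPM in replicate 2, with 1 of its 3 genes of at least 100 counts lower by that much. That gene was Mir449a, at -2.66 (84.1 and 532 CPM in replicates 1 and 2), which held most of the change in the sum. The retinal pigment epithelium and choroid plexus list summed to 348 CPM in replicate 1 and 706 CPM in replicate 2. Of its 4 genes of at least 100 counts, 3 were lower by at least 0.5 log2 units. Mir1298, the highest of the list, was at -1.43 (141 and 381 CPM). Mir204, which marks retinal pigment epithelium and choroid plexus, was at -0.69 (150 and 242 CPM). The muscle list, in which Mir133a-1 and Mir133a-2 were at 0 in both libraries, summed to 182.2 CPM in replicate 1 and 417 CPM in replicate 2. Of its 3 genes of at least 100 counts, 2 were lower by at least 0.5 log2 units and 1 higher. Mir206, the highest of the list, was at -1.67 (117 and 373 CPM). Mir208b was at 1.08 (48.2 and 22.7 CPM), in the direction of the cluster. The skin epithelium list, Mir203 and Mir205, summed to 506 CPM in replicate 1 and 753 CPM in replicate 2, with 1 of 2 lower. The mesenchymal list summed to 8589 CPM in replicate 1 and 10609 CPM in replicate 2, with 1 of 6 lower.

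The erythroid list went the other way, with 76.1 CPM in replicate 1 and 48.3 CPM in replicate 2 and 1 of 3 genes, Mir451a, higher in replicate 1 by at least 0.5 log2 units, against 4.58% of all 306 genes. The part of other cells in the cluster's gap of 11699 CPM was not tested. No list held markers of dorsal root ganglion cells alone, so the amount of ganglion tissue in each library was not measured. In whole tissue, fewer cells of a type and less RNA per cell cannot be told apart.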

How the data were processed

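MicroRNA-seq (size range under 30 nt, per the labels) was measured in 2 libraries. The deposited tables hold raw counts per miRNA gene in 3 columns, on build mm10 with annotation M4 per the file headers. That these are unstranded, same-strand and opposite-strand counts was inferred from the values. The aligner is not given in the sources used here. Unmapped, multimapping and no-feature reads (17.4%, 28.5% and 2.95% in replicate 1, and 12.2%, 31.0% and 3.10% in replicate 2) stayed out of the main totals. The alternative total of all mapped reads included the multimapping and no-feature reads. Names and places came from GENCODE M21 by unversioned identifier (1894 of 1973 matched, and the 79 others held 8 counts).

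CPM used each library's same-strand total. Replicate differences are log2 CPM ratios, replicate 1 over replicate 2, with a pseudocount of 0.5 and Clopper-Pearson intervals on the split of counts. The common dispersion came from edgeR 4.0.16 (R 4.3.3), intercept only, with TMM and at least 10 counts in each library. Other steps used Python 3.11.15 and scipy 1.17.1, and were tested on simulated data. With 1 condition, no gene was tested. Alternatives were other scalings (TMM, DESeq2 1.42.0 size factors, totals without Mir10a, all mapped reads), the unstranded column, pseudocounts, count minimums, chain gaps and each replicate left out. Named genes were the members, their neighbours in rank, genes sharing a seed and the 2 nearest in replicate difference. Also named were the 3 widest chains and up to 2 genes of each of 10 marker lists. Mir124a-2, Mir122, Mir7j, Mirlet7c-1 and Mir99a were named after their values were seen. Members and lists were chosen with earlier results of these data known. Mir9-1 and Mir1a-2 were not analysed here.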

Additional observations from a re-analysis of the deposited data

Results flagged for a closer look

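Opposite-strand counts, which no level above uses, were above the 3 counts that a count of 0 allows on 2 of the 3 members. Mir183 had 16 opposite-strand counts in replicate 1 and 4 in replicate 2, and Mir182 had 8 in replicate 1 and 5 in replicate 2. Mir96 had 0 in both libraries. These were at most 0.0183% of a member's counts on both strands.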

How the results depend on the processing

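No member's replicate difference changed sign under any scaling, column or pseudocount tried. Shifts of the differences past their counting intervals were small. Without Mir10a in the totals the log2 differences were 0.99 (Mir182), 0.46 (Mir96) and 0.35 (Mir183), with TMM 1.05, 0.52 and 0.41, with DESeq2 size factors 1.04, 0.52 and 0.41, and with all mapped reads 1.03, 0.50 and 0.39. Without Mir10a in the totals the mean levels were 14089 CPM for Mir182, 13822 CPM for Mir183 and 4646 CPM for Mir96, and with all mapped reads as the total 6929, 6776 and 2279, which follows from the size of these totals. With each replicate left out, levels ran from 7447 to 15036 CPM for Mir182, from 9572 to 12441 for Mir183 and from 3081 to 4322 for Mir96. The log2 ratio of Mir182 to Mir183 ran from -0.36 to 0.27, so its sign rests on the library used. In favour of replicate 1 by at least 0.5 log2 units, 28 genes were found with at least 10 counts in each library, 161 with at least 1 count and 5 with at least 1000 counts, against 14, and in either direction 49, 315 and 10, against 26. With at least 1000 counts summed, the cluster came 3rd of 25 chains in the spread of replicate differences and 17th in the spread of levels. It came 1st of 5 where every gene averaged at least 1000 CPM, and 3rd of the 31 chains of 2 or 3 genes, both chosen after seeing the data. No paired analysis was possible because there is 1 group only. Depth was not the limit for the members, each with over 10000 counts in each library, while 2 libraries limit every statement on their spread.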
